A study of Mus musculus with 11 samples.

Results

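Histone genes were examined in RNA-seq of LSKs, the Lin-Sca1+Kit+ bone marrow cells that hold hematopoietic stem cells and early progenitors. A gene was included where its symbol in the count table began with Hist1h to Hist4h, H2af, H3f3 or H1f, which gave 59 of 12647 genes. Of these, 49 were Hist genes, taken as replication-dependent by symbol (5 of H1, 12 of H2A, 15 of H2B, 9 of H3 and 8 of H4), and 10 were variant genes. Sorting used these symbols and no expression value. The study asked how the p53 mutation R248W and the loss of p53 alter hematopoietic stem and progenitor cells. LSKs came from p53+/+, p53R248W/+ and p53-/- mice on a C57BL/6 background, with 3 libraries for each of the 3 genotypes and 9 in all. Per the methods of the study, p53+/+ mice carry the humanized p53 knock-in allele, which encodes a chimeric human and mouse p53 from the mouse Trp53 promoter, and p53R248W/+ mice carry the mutation in 1 copy of that allele in every cell. p53-/- mice are labelled as lacking both copies of the gene, the origin of their line is not given in the sources used here, and mice of all 3 genotypes were young adults without tumors. The 2 H3K27me3 ChIP-seq samples of the series were not analysed here.

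Nucleosomes wrap DNA around pairs of H2A, H2B, H3 and H4, and the linker histone H1 binds between them. Replication-dependent histone genes lie in clusters, mostly have no introns and are transcribed mainly in S phase, and most of their mRNAs end in a conserved stem-loop bound by SLBP rather than in a poly(A) tail. Variant histones are made throughout the cell cycle from genes outside the clusters whose mRNAs are mostly polyadenylated, and they replace canonical histones at promoters, damaged DNA or silent chromatin. The methods of the study describe selection of mRNA with oligo(dT), which retains polyadenylated RNA, while the sample labels name a low-input SMART-Seq kit. The levels given here are therefore levels of the histone RNA that these preparations captured, and the polyadenylated share of each histone mRNA was not measured.

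The stem-loop marks the difference between both kinds of gene in the genome, and representative sequences are shown because the capture of histone mRNA turns on this end. In RefSeq on GRCm38, the mm10 assembly, a match to the consensus of the histone stem-loop on the coding strand, with any base at its variable positions, lay close behind the reading frame in 47 of 49 Hist genes and in 1 of 10 variant genes, H2afx. It began 21 to 54 bases after the stop codon of the protein-coding Hist genes. The stem and loop are in capitals, 5′ to 3′ on the coding strand.
Hist1h2bg (H2B, chr13:23571843-23571858): caaaGGCTCTTTTCAGAGCCaccc
Hist1h2bb (H2B, chr13:23747203-23747218): caaaGGCTCTTTTAAGAGCCaccc
Hist1h4d (H4, chr13:23581950-23581965): caaaGGCCCTTTTCAGGGCCacta
H2afx (variant, chr9:44335240-44335255): caaaGGCCCTTTTAAGGGCCacca
The stem-loop of Hist1h2bg was shared letter for letter by 30 Hist genes, among them all 5 H1 genes, and that of Hist1h4d by 5 H4 genes. In Hist1h2an the last stem base departed from the consensus (caaaGGCTCTTTTCAGAGCTaaca), and Hist2h2be had no match within 150 bases of its stop codon. The annotated transcript of Hist2h2be has a poly(A) signal near its end, as have transcripts of Hist1h2bc and Hist1h2bp. The place of Hist2h2be among replication-dependent genes thus rests on its symbol. Of the 49 Hist genes, 46 had a single exon. The RefSeq annotation stopped within 8 bases past the stem-loop in 42 of the 47 and ran farther in 4, Hist1h2bc, Hist1h2be, Hist1h2bp and Hist1h3e. In Hist3h2bb-ps it stopped 44 bases short of the end of the stem-loop, which lies outside the annotated gene.

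The Hist genes lay on 4 chromosomes. On chromosome 13, 39 of them fell between 21715711 and 23764412, with 6 on chromosome 3, 3 on chromosome 11 and 1 on chromosome 6. The 3 genes on chromosome 11, Hist3h2a, Hist3h2ba and Hist3h2bb-ps, lay between 58948911 and 58955192, 10.6 Mb from Trp53. Many Hist genes share stretches of sequence with other genes, so reads can match several genes. A median of 50% of the 50-base stretches of a Hist gene occurred in another gene (range 0% to 100%), and 25 of 49 genes shared at least 50% of theirs. How reads that match several genes were counted is not given in the sources used here, so values of single Hist genes are uncertain. Among variants the median share was 3.62%, with H3f3a at 40.2% and H2afz at 33.2%.

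Depth on genes ranged from 18021375 to 29750702 counts in the 9 libraries. The 8 markers listed for LSKs, among them Kit and Ly6a, were all detected, at a summed 3140 to 4130 CPM (counts scaled to library size with TMM factors) in p53+/+, 3385 to 3958 CPM in p53R248W/+ and 4072 to 4593 CPM in p53-/- libraries. By the edgeR test described below 1 of the 8 was higher in p53-/- against p53+/+ LSKs, against 1.25% of all genes tested. In p53R248W/+ against p53-/- LSKs 2 were lower, against 1.1% of all genes tested. Ly6g of neutrophils, Pax5 and Ighm of B cells, Cd3e and Cd3g of T cells and the hemoglobin genes Hba-a1 and Hbb-bt have no row in the table. The 7 other markers of the granulocyte and monocyte list summed to 2187 to 4654 CPM in p53+/+, 3700 to 7249 CPM in p53R248W/+ and 1500 to 1820 CPM in p53-/- libraries, so that p53-/- libraries lay below all others. The T and NK list summed to 312.0 to 330.4, 319.4 to 416.6 and 201.5 to 274.6 CPM in the same order, again with p53-/- libraries below all others. The B lymphoid list summed to 2.96 to 18.9, 13.4 to 18.5 and 2.94 to 4.22 CPM, and the erythroid and megakaryocyte lists to 15.5 to 81.1 and 105.7 to 162.7 CPM over all libraries. Nkg7 made up most of the T and NK sum, with 197.2 to 407.5 CPM against at most 1.33 for Cd8a and 7.83 for Klrb1c. Mpo, with 1125 to 5776 CPM, led the granulocyte and monocyte sum. By the edgeR test no gene of either list was called in p53-/- against p53+/+ LSKs, against 3.5% of all genes tested. In p53R248W/+ against p53-/- LSKs, 2 granulocyte and monocyte genes and 1 T and NK gene were called higher. The share called higher over all genes tested was 2.34% there. In bulk RNA, fewer cells of a type and less RNA per cell cannot be told apart. The p53 target Cdkn1a had 43.6 to 67.0 CPM in p53+/+ and 8.27 to 17.8 CPM in p53-/- libraries, and Trp53 itself kept 112.1 to 128.9 CPM in p53-/- against 124.5 to 376.2 CPM in p53+/+ libraries. Which part of Trp53 is deleted is not given in the sources used here, so the count of the whole gene does not check the label. Column names of p53-/- libraries follow another style than those of the other genotypes. In p53+/+ and p53R248W/+ the names also differ in style by replicate number, and those of replicate 1 alone lack the ending LSK. Whether all libraries were prepared together is not given in the sources used here, so genotype and preparation cannot be told apart.

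Variant genes gave far more reads than Hist genes in every library. In p53+/+ libraries the 10 variants held 0.700% to 0.817% of all counts, while the 49 Hist genes held 0.0390% to 0.0486%. Per kb of gene length, the order of the variants in p53+/+ LSKs was led by H2afy (macroH2A1) with 1701 CPM per kb, H3f3b and H3f3a (both H3.3) with 845.7 and 654.4, and H2afz (H2A.Z) with 765.7. The highest Hist gene of each class was Hist1h4d for H4 with 110.1 CPM per kb, Hist1h2bc for H2B with 71.8, Hist1h2ae for H2A with 59.9, Hist1h1c for H1 with 28.2 and Hist1h3d for H3 with 14.1. The lowest was Hist2h2ab with 1.27 CPM per kb. All 59 genes passed the filter on low counts, and the one with the fewest reads had 147 counts over the 9 libraries. A gene that is low in 1 genotype can pass this filter through the others. Among genes called below, p53-/- libraries had 3, 0 and 2 counts of Hist3h2bb-ps, 5, 17 and 5 of Hist3h2ba and 8, 14 and 7 of Hist1h2bp. These genes were thus tested because of their levels in the other genotypes.

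**Figure D1:**
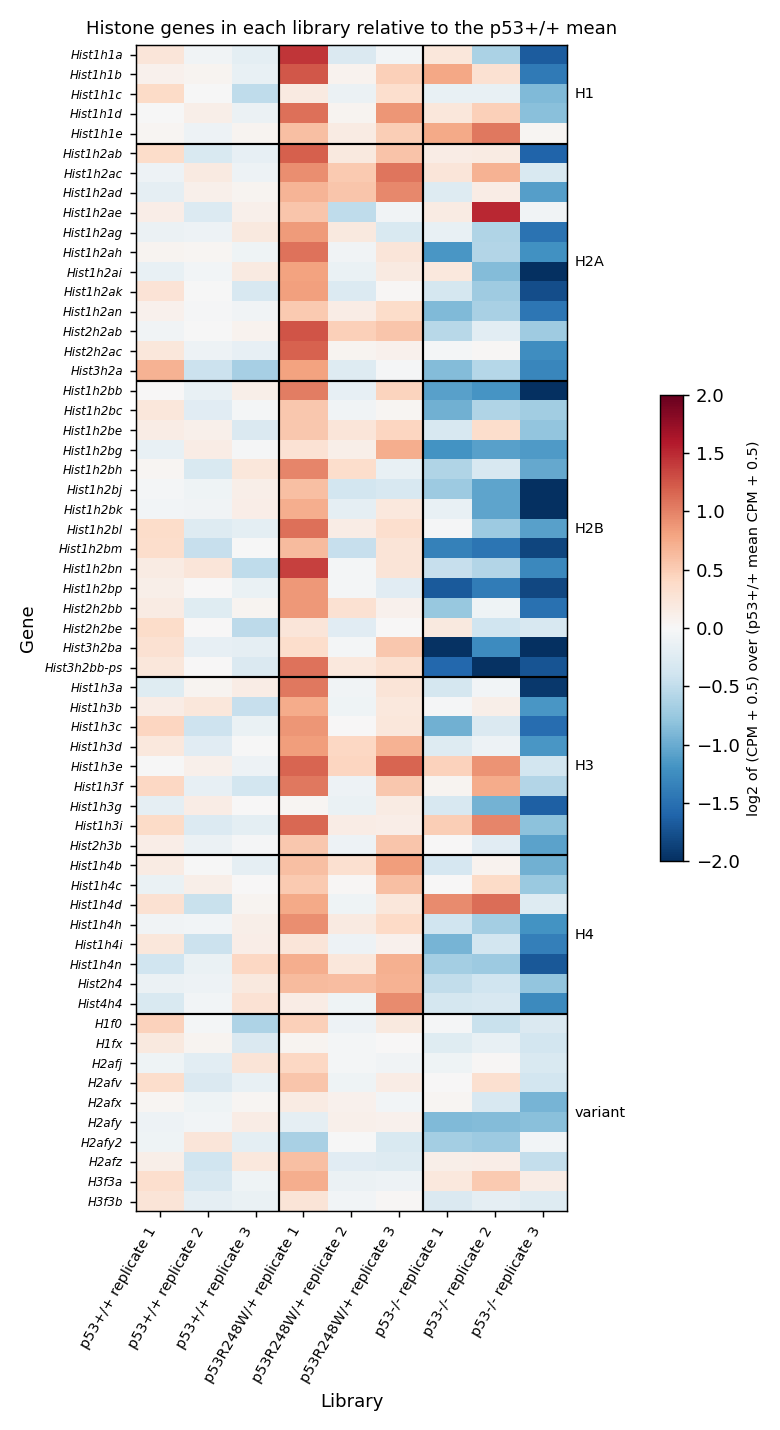
Heat map of the 49 Hist genes by class and the 10 variant genes (rows) in the 9 libraries (columns), colored by the log2 of CPM plus 0.5 over the p53+/+ mean plus 0.5, with values beyond 2 or -2 drawn in the end colors. H2B rows are blue in most p53-/- columns, p53-/- replicate 3 is blue in nearly all Hist rows, and p53R248W/+ replicate 1 is the reddest column.

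In p53-/- against p53+/+ LSKs, genes of H2B were lower and the variant macroH2A1 was lower, while no histone gene was called higher. With edgeR's quasi-likelihood test and an adjusted p-value below 0.05, 6 of 59 histone genes fell, against 2.25% of the 12625 genes tested that were called lower, 1.25% called higher and 3.5% called in either direction. They were H2afy and 5 Hist genes, each of H2B: Hist1h2bg, Hist1h2bm, Hist1h2bp, Hist3h2ba and Hist3h2bb-ps. No gene among the other 34 Hist genes passed. Log2 fold changes were below 0 in 40 of 49 Hist genes, against 50.1% of all genes tested, with a median of -0.74 against 0.00 over all genes. The lowest p53+/+ library lay above the highest p53-/- library in 20 of 49 Hist genes, against 16.0% of all genes tested. At an unadjusted p-value below 0.05, 14 Hist genes were lower, against 12.5% of all genes tested, and 1 was higher, Hist1h1e, against 10.9% of all genes tested. The lower sums of the granulocyte and monocyte and T and NK lists in p53-/- libraries, led by Mpo and Nkg7, go with all of these differences. So does the LSK marker that was higher, and the part of these markers in the differences was not tested.

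Hist1h2bg, an H2B gene in the large cluster (chr13:23571400-23571863), had 12.5, 15.4 and 13.7 CPM in p53+/+, 17.1, 15.0 and 23.4 CPM in p53R248W/+ and 5.77, 6.28 and 6.04 CPM in p53-/- libraries. All 3 p53-/- libraries were close together and below the 6 others. The log2 fold change in p53-/- against p53+/+ was -1.20 (standard error SE 0.24, adjusted p = 0.0273 by edgeR). Hist1h2bm (chr13:21722044-21722526) showed the same order at a lower level, with 5.39, 2.84 and 4.07 CPM in p53+/+, 6.65, 2.84 and 4.98 CPM in p53R248W/+ and 1.31, 1.17 and 0.786 CPM in p53-/- libraries. The p53-/- libraries did not overlap with either other genotype. Its log2 fold change was -1.91 (SE 0.46, adjusted p = 0.0448 by edgeR). Hist1h2bp (chr13:21787483-21801561), which has a spliced form in the annotation besides the form that ends at the stem-loop, had 2.72, 2.49 and 2.23 CPM in p53+/+, 4.96, 2.41 and 2.06 CPM in p53R248W/+ and 0.435, 0.632 and 0.344 CPM in p53-/- libraries. Every p53-/- library was again below all others, with a log2 fold change of -2.38 (SE 0.53, adjusted p = 0.0360 by edgeR).

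The small cluster on chromosome 11 held the H2B genes with the largest fold changes among those called. This cluster lies 10.6 Mb from Trp53, and the origin of the p53-/- line is not given in the sources used here. Whether the genotypes differ in DNA linked to Trp53 was not tested, so that and the loss of p53 cannot be told apart here. Hist3h2ba (chr11:58948911-58949372) had 3.22, 2.19 and 2.17 CPM in p53+/+, 3.38, 2.46 and 3.89 CPM in p53R248W/+ and 0.272, 0.768 and 0.246 CPM in p53-/- libraries, without overlap. Its log2 fold change was -2.53 (SE 0.56, adjusted p = 0.0348 by edgeR). Hist3h2bb-ps (chr11:58954048-58954512), which is annotated as a pseudogene and was counted as an H2B gene here, had 1.81, 1.49 and 1.12 CPM in p53+/+, 3.67, 1.78 and 1.97 CPM in p53R248W/+ and 0.163, 0 and 0.0982 CPM in p53-/- libraries. It had 86 counts over the 3 p53+/+ libraries and 5 over the 3 p53-/- libraries, a ratio of 0.0553 after scaling to library size (95% interval from 0.0175 to 0.134, exact and for counting error only). edgeR gave a log2 fold change of -4.05 (SE 0.81, adjusted p = 0.0272). Hist3h2ba shares 30.3% of its 50-base stretches with another gene, which is Hist3h2bb-ps. An antisense gene, Gm51864, overlaps Hist3h2ba, and without knowledge of strand in the counting their reads cannot be told apart.

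Of the other 10 H2B genes, none passed the threshold in this comparison, and all had a log2 fold change below 0, from -1.71 to -0.15. Closest to the threshold were Hist1h2bc, with a log2 fold change of -0.76 (SE 0.21, adjusted p = 0.0632 by edgeR), and Hist1h2bb, with -1.71 (SE 0.48, adjusted p = 0.0663 by edgeR). Hist1h2bc, the H2B gene with the highest level per kb, had 64.8, 47.5 and 54.3 CPM in p53+/+, 81.1, 53.1 and 57.2 CPM in p53R248W/+ and 28.4, 36.3 and 34.0 CPM in p53-/- libraries. The p53-/- libraries lay below all others here too. Hist2h2be, which lacks the stem-loop, moved least, with 21.1, 16.4 and 11.2 CPM in p53+/+ against 18.7, 12.2 and 12.9 CPM in p53-/- libraries, which overlap. Over the 15 H2B genes the median log2 fold change was -1.08, and in 10 of them all p53-/- libraries lay below all p53+/+ libraries, against the 16.0% of all genes tested.

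**Figure D2:**
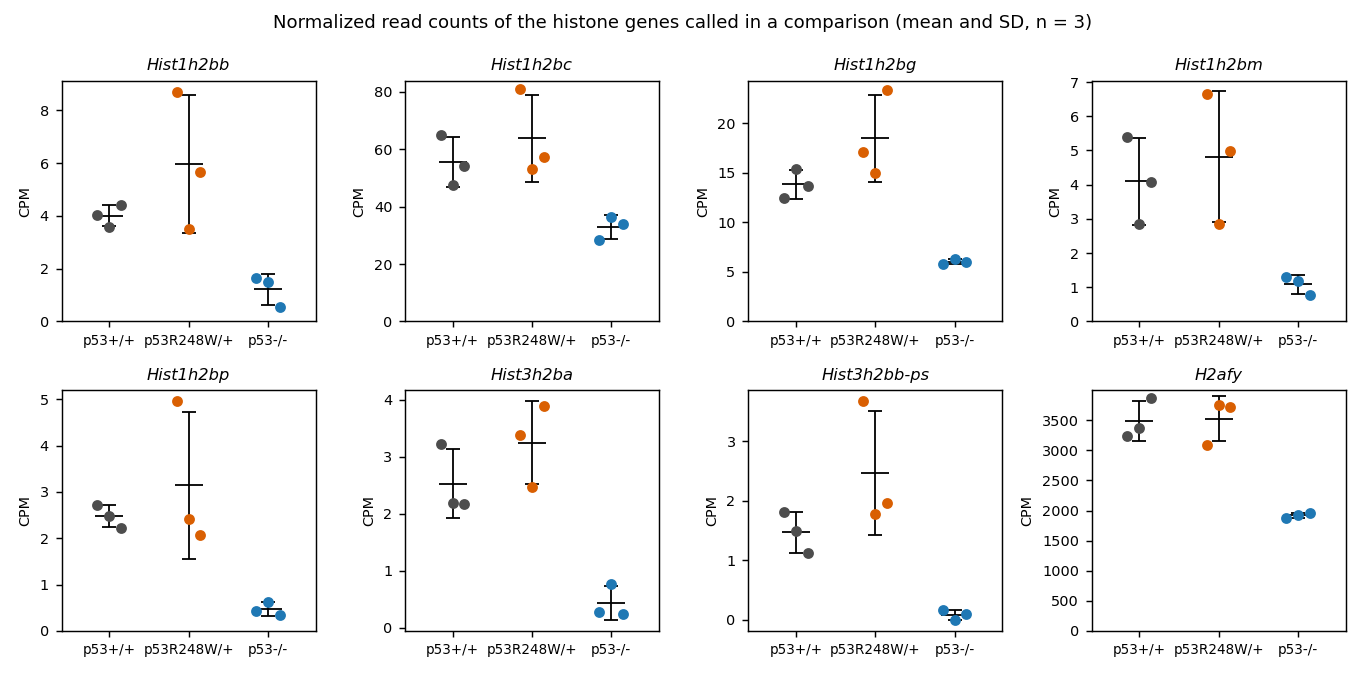
Normalized read counts (CPM, vertical axis from 0) of the 8 histone genes called in at least 1 comparison, with 1 point per library and bars for the mean and SD of 3 libraries per genotype. In each panel the 3 p53-/- points lie below the points of the other genotypes, which overlap with each other.

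The other classes were mixed. For H2A, the partner of H2B in the nucleosome's dimers, 10 of 12 genes had log2 fold changes below 0 in p53-/- against p53+/+ LSKs, with a median of -0.77, and in 5 genes all p53-/- libraries lay below all p53+/+ libraries, against 16.0% of all genes tested. The H2A gene highest per kb, Hist1h2ae, had 36.7, 27.4 and 36.0 CPM in p53+/+, 49.4, 23.4 and 31.8 CPM in p53R248W/+ and 37.6, 95.4 and 31.8 CPM in p53-/- libraries. Replicate 2 of p53-/- stood far above the rest, and the log2 fold change was 0.72 (SE 0.39, adjusted p = 0.289 by edgeR). For H4, 7 of 8 genes were below 0, with a median of -0.71. The exception was Hist1h4d, the Hist gene with the highest level per kb, which had 50.2, 29.5 and 41.9 CPM in p53+/+, 69.1, 38.2 and 47.3 CPM in p53R248W/+ and 78.4, 88.2 and 33.7 CPM in p53-/- libraries, with overlap and an adjusted p of 0.230 from edgeR. In the H4 genes Hist1h4h, Hist1h4n, Hist2h4 and Hist4h4 all p53-/- libraries lay below all p53+/+ libraries, against 16.0% of all genes tested. For H3, 6 of 9 genes were below 0, with a median of -0.41, and libraries separated in this way in Hist1h3g alone. Hist1h3d, the highest H3 gene, had 8.26, 5.98 and 7.03 CPM in p53+/+, 13.0, 9.58 and 11.8 CPM in p53R248W/+ and 5.82, 6.60 and 2.90 CPM in p53-/- libraries. The linker histone genes had a median of 0.06, with 3 of 5 above 0. Hist1h1c, the highest of them, had 26.7, 20.4 and 14.2 CPM in p53+/+, 23.2, 18.7 and 26.0 CPM in p53R248W/+ and 18.3, 18.3 and 10.8 CPM in p53-/- libraries, which overlap.

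**Figure D3:**
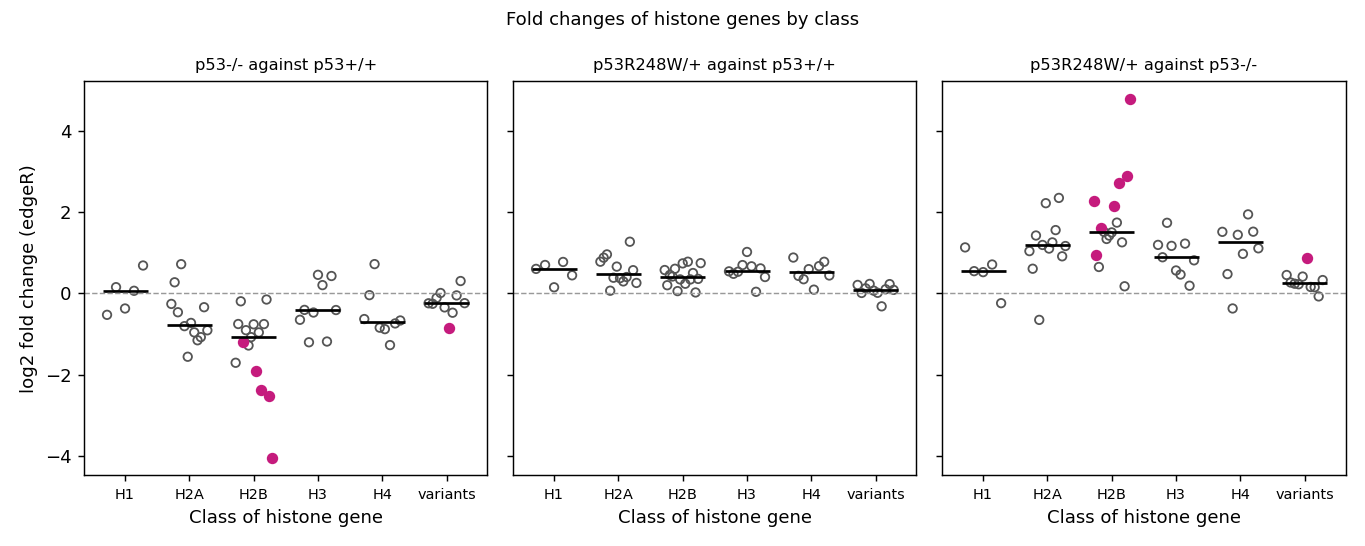
Log2 fold changes from edgeR (vertical axis) of histone genes by class in the 3 comparisons, with 1 circle per gene, filled where the adjusted p-value is below 0.05, and a line at the class median. All filled circles among Hist genes are in the H2B class, and in p53R248W/+ against p53+/+ all Hist genes sit above 0 without a filled circle.

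The libraries of a genotype were not alike for these genes. Replicate 3 of p53-/- had the lowest value of all 9 libraries in 42 of 49 Hist genes (85.7%), against 8.40% of all genes tested, and replicate 1 of p53R248W/+ had the highest in 33 of 49 (67.3%), against 17.4% of all genes tested. Without p53-/- replicate 3, 36 of 49 Hist genes were below 0 in p53-/- against p53+/+ LSKs with a median of -0.43, and for H2B 14 of 15 genes with a median of -0.78. The calls depended on which library was left out, for Hist genes and for all genes. Without p53-/- replicate 1, 2 or 3 or without p53+/+ replicate 2 or 3, 0 Hist genes passed, in fits that called 27 to 81 of all genes lower against 284 with all libraries. Without p53+/+ replicate 1 or p53R248W/+ replicate 2, 2 Hist genes passed, beside 329 and 203 of all genes called lower. Without p53R248W/+ replicate 3, 3 passed beside 218 of all genes, and without p53R248W/+ replicate 1, 8 passed beside 824. By other tools on the same 9 libraries, DESeq2 called 9 Hist genes lower, against 6.59% of all genes, and limma-voom 1, against 1.46%. The 9 genes were 8 of H2B and the H2A gene Hist1h2an.

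The totals differed by class as well. All Hist genes together summed to 480.0, 380.5 and 394.7 CPM in p53+/+, 716.5, 412.8 and 531.4 CPM in p53R248W/+ and 416.0, 506.4 and 234.2 CPM in p53-/- libraries, which overlap. The log2 ratio of the genotype means was -0.12 for p53-/- against p53+/+, and the genes that lead the sum did not move together. Hist1h2bc and Hist3h2a had means of 55.5 and 26.6 CPM in p53+/+ against 32.9 and 14.2 CPM in p53-/- libraries. Hist1h4d, Hist1h2ae and Hist1h1e had means of 40.5, 33.4 and 20.6 CPM against 66.8, 54.9 and 33.2 CPM, and none of these genes passed the threshold. The 15 H2B genes summed to 143.7, 116.9 and 119.2 CPM in p53+/+, 193.8, 121.5 and 143.8 CPM in p53R248W/+ and 74.5, 77.3 and 62.3 CPM in p53-/- libraries. For H2B the p53-/- libraries were below all 6 others, and the log2 ratio of the means was -0.83 against p53+/+. The 12 H2A genes summed to 106.9 ± 19.3 CPM in p53+/+ and 109.0 ± 51.2 CPM in p53-/- libraries (SD, n = 3). The ratio of the H2B sum to the H2A sum was therefore 1.11, 1.24 and 1.23 in p53+/+, 1.01, 1.19 and 1.09 in p53R248W/+ and 0.760, 0.470 and 0.971 in p53-/- libraries. All 3 p53-/- ratios were below those of the other genotypes. The ratio of H2B to H4 was 1.78, 2.00 and 1.55 in p53+/+ and 0.737, 0.666 and 1.34 in p53-/- libraries, again without overlap, and that of H2B to H3 overlapped, with 4.32 in p53-/- replicate 3. Single genes weigh heavily in these sums. Hist1h2ae held 37.6, 95.4 and 31.8 CPM of H2A sums of 98.1, 164.7 and 64.2 CPM in p53-/- libraries. Hist1h4d held 78.4, 88.2 and 33.7 CPM of H4 sums of 101.1, 116.2 and 46.4 CPM there. Ratios without Hist1h2ae or Hist1h4d were not taken, so the separation cannot be carried over to the other H2A and H4 genes.

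**Figure D4:**
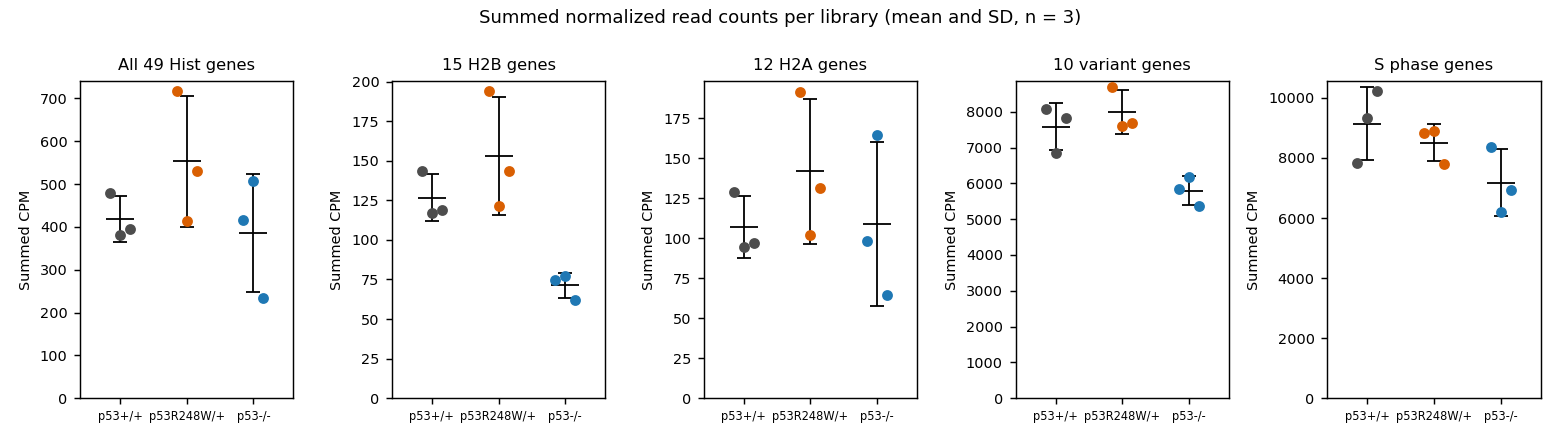
Summed CPM (vertical axes from 0) of all Hist genes, H2B genes, H2A genes, variant genes and the S phase list in each library, with bars for the mean and SD of 3 libraries per genotype. The p53-/- points lie below all others for H2B (62.3 to 77.3 CPM) and for the variants (5369 to 6186 CPM), and overlap with p53+/+ for all Hist genes and for H2A.

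Many H2A and H2B genes start head to head from a shared stretch of DNA, so that the members of a pair can be compared. There were 9 such pairs with at most 300 bases between both gene starts. In p53-/- against p53+/+ LSKs the H2B gene had the lower log2 fold change in 7 of 9 pairs. The values were nearly the same in 2 of the 7, Hist1h2ai and Hist1h2bl with -0.73 and -0.76, and Hist1h2ak and Hist1h2bn with -0.96 each, where SEs of the single genes were 0.49 to 0.59. In 4 pairs the ratio of H2B to H2A was lower in all p53-/- than in all p53+/+ libraries. Among the 4 is Hist3h2a with Hist3h2bb-ps, which had 5 counts over the p53-/- libraries. Pairs of other genes were not examined, so these counts of pairs have no share to be set against. The widest gaps between both members are shown with the DNA between their annotated starts, since neighbors on the same stretch differed in direction or size. The sequences are from RefSeq on GRCm38, plus strand, 5′ to 3′, with matches on either strand in capitals. They mark CCAAT, the octamer ATTTGCAT and the TATA box TATAAA, and no match overlaps another.
Hist1h2ae and Hist1h2bg, 179 bases (chr13:23571221-23571399): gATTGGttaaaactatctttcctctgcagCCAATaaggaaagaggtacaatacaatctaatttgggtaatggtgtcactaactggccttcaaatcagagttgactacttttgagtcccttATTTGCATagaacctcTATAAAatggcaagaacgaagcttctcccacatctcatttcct
Hist1h2ac and Hist1h2bc, 239 bases (chr13:23683960-23684198): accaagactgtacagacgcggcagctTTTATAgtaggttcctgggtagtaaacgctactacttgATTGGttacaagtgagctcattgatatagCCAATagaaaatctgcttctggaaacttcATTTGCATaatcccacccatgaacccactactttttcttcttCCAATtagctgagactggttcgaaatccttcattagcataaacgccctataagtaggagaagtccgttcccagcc
Hist1h2an and Hist1h2bp, 234 bases (chr13:21787249-21787482): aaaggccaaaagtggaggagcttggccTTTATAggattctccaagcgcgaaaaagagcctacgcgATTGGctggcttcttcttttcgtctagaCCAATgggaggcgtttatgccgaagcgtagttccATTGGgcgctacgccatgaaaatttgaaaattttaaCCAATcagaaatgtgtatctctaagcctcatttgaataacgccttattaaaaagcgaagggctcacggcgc
Hist3h2a and Hist3h2bb-ps, 172 bases (chr11:58954513-58954684): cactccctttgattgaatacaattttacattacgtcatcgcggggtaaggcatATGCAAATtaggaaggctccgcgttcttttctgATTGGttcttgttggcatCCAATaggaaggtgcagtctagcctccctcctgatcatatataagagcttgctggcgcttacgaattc

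Across the stretch between Hist1h2ae and Hist1h2bg, the H2A gene had a log2 fold change of 0.72 in p53-/- against p53+/+ LSKs and the H2B gene -1.20. The ratio of Hist1h2bg to Hist1h2ae was 0.341, 0.562 and 0.381 in p53+/+, 0.346, 0.641 and 0.736 in p53R248W/+ and 0.153, 0.0658 and 0.190 in p53-/- libraries. The p53-/- ratios did not overlap with those of the other genotypes. Between Hist1h2ac and Hist1h2bc the values were 0.27 and -0.76, and the ratio of 2.43 in p53-/- replicate 3 lay above the lowest p53+/+ ratio of 2.40. Between Hist1h2an and Hist1h2bp they were -1.16 and -2.38, with ratios of 0.666 to 0.720 in p53+/+ and 0.257 to 0.350 in p53-/- libraries. Between Hist3h2a and Hist3h2bb-ps they were -0.91 and -4.05, where Hist3h2a shares all its 50-base stretches with Trim17, which overlaps it on the same strand. In the pairs Hist1h2ah with Hist1h2bk and Hist2h2ac with Hist2h2be, the H2B gene had the higher log2 fold change.

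**Figure D5:**
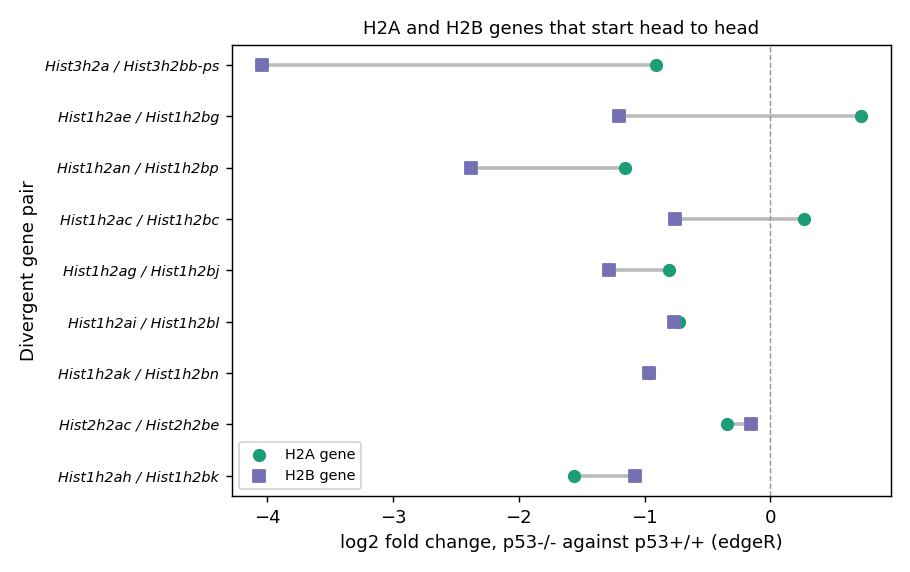
Log2 fold changes in p53-/- against p53+/+ LSKs (horizontal axis, edgeR) of the H2A gene (circle) and the H2B gene (square) of the 9 divergent pairs. The square lies left of the circle in 7 pairs, though almost on it in 2 of them, and farthest in Hist3h2a with Hist3h2bb-ps (-0.91 and -4.05) and Hist1h2ae with Hist1h2bg (0.72 and -1.20).

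The octamer, which binds POU factors such as OCT1, is known from H2B promoters. Within 250 bases before to 50 bases after the RefSeq gene start, available for 52 of 59 histone genes, ATTTGCAT or its complement occurred in 6 of 12 H2B and 6 of 12 H2A promoters, in no H1, H3 or H4 promoter, and in 1.97% of 27025 mouse promoters. Both genes of a divergent pair share most of this window, so these counts are not independent. The octamers of Hist1h2ac, Hist1h2ae, Hist1h2ah and Hist3h2a lie in the stretch shared with an H2B gene, of which Hist1h2bc and Hist3h2bb-ps have no entry among the 12 H2B promoters. CCAAT was present in every H1, H2A, H2B and H3 promoter searched, in 2 of 7 H4 promoters, and in 41.1% of all promoters. TATAAA was present in 6 of 12 H2B and 9 of 12 H2A promoters and in 15.7% of all promoters. Of the H2B genes called in p53-/- against p53+/+ LSKs, the octamer was in the promoters of Hist1h2bg and Hist1h2bm and in the stretch that Hist3h2bb-ps shares with Hist3h2a, and not in the promoters of Hist1h2bp and Hist3h2ba.

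Among the variants, macroH2A1 was the one that passed the threshold. H2afy encodes this H2A variant with a large macro domain, which is found in silent chromatin, and it was the histone gene with the highest level. It had 3242, 3373 and 3864 CPM in p53+/+, 3097, 3758 and 3720 CPM in p53R248W/+ and 1885, 1922 and 1963 CPM in p53-/- libraries. The p53-/- libraries lay far below all others and close to each other, with a log2 fold change of -0.86 against p53+/+ (SE 0.15, adjusted p = 0.0157 by edgeR). No 50-base stretch of H2afy (chr13:56073622-56135626) occurred in another gene. Its call was lost without p53-/- replicate 1, 2 or 3 and without p53+/+ replicate 2 or 3, while the log2 fold change stayed between -0.91 and -0.78 under all alternatives tried. H2afy2, which encodes the related macroH2A2, was scarce, with 9.72, 12.3 and 8.92 CPM in p53+/+, 6.43, 10.2 and 8.23 CPM in p53R248W/+ and 6.26, 6.05 and 9.92 CPM in p53-/- libraries, which overlap.

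The H2A.Z genes, whose products mark active promoters, showed no shift of that kind. H2afz had 891.4, 620.8 and 943.5 CPM in p53+/+, 1243, 703.2 and 686.0 CPM in p53R248W/+ and 885.8, 896.6 and 588.4 CPM in p53-/- libraries, and its paralog H2afv had 413.7, 265.8 and 293.6, then 476.1, 306.7 and 360.0, then 325.4, 403.1 and 250.2 CPM. Genotypes overlapped for both, with log2 fold changes of -0.05 and 0.01 in p53-/- against p53+/+ LSKs. H2afx, the variant phosphorylated at DNA breaks and the variant gene with a stem-loop, had 256.8, 234.8 and 254.6 CPM in p53+/+, 279.1, 263.1 and 239.4 CPM in p53R248W/+ and 256.5, 199.8 and 130.6 CPM in p53-/- libraries. Replicate 3 of p53-/- was lowest, as for most Hist genes, and the log2 fold change of -0.35 did not pass (adjusted p = 0.357 by edgeR). H2afj, a further H2A variant gene, had 117.8, 107.7 and 149.0 CPM in p53+/+, 167.3, 121.4 and 119.3 CPM in p53R248W/+ and 118.1, 127.4 and 100.7 CPM in p53-/- libraries, with overlap.

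Both genes of H3.3, the H3 variant deposited outside replication, were abundant. H3f3a had 888.5, 564.0 and 659.8 CPM in p53+/+, 1168, 652.6 and 652.9 CPM in p53R248W/+ and 814.5, 1012 and 780.6 CPM in p53-/- libraries, and H3f3b had 2023, 1489 and 1544, then 2025, 1627 and 1713, then 1380, 1490 and 1406 CPM. Values of p53-/- and p53+/+ libraries overlapped for both, with log2 fold changes of 0.30 and -0.24. Of the linker histone variants, H1f0, which accumulates in cells that stop dividing, had 205.1, 145.0 and 96.5 CPM in p53+/+, 206.8, 139.1 and 169.6 CPM in p53R248W/+ and 146.9, 108.7 and 121.4 CPM in p53-/- libraries. H1fx had 26.3, 24.0 and 18.7, then 23.9, 22.4 and 23.1, then 19.3, 20.6 and 17.8 CPM. Neither gene separated p53-/- from p53+/+ libraries. The 10 variants together summed to 7581 ± 656.4 CPM in p53+/+, 7996 ± 604.8 CPM in p53R248W/+ and 5797 ± 409.7 CPM in p53-/- libraries (SD, n = 3), and the 9 variants without H2afy to 4088 ± 692.4, 4471 ± 975.9 and 3874 ± 434.5 CPM, which overlap.

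In p53R248W/+ against p53+/+ LSKs no histone gene passed the threshold, while all Hist genes leaned upward. edgeR called 0 of 59 histone genes, against 0.00792% of all genes tested, and DESeq2 and limma-voom also called 0, with 6 and 1 of all genes called. At an unadjusted p-value below 0.05, 2 histone genes were higher and 0 lower, against 0.475% and 0.483% of all genes tested. The log2 fold change was above 0 in 49 of 49 Hist genes, against 52.5% of all genes tested, with a median of 0.50 against 0.01 over all genes. Medians by class were 0.60 for H1, 0.49 for H2A, 0.42 for H2B, 0.54 for H3 and 0.52 for H4, and 0.09 for the variants. All p53R248W/+ libraries lay above all p53+/+ libraries in 11 of 49 Hist genes, against 2.66% of all genes tested. This rested in part on replicate 1 of p53R248W/+, without which 38 of 49 Hist genes were above 0 with a median of 0.18.

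Hist1h2ac and Hist1h3e were the pair past that unadjusted threshold. Hist1h2ac, an H2A gene, had 33.7, 25.3 and 37.3 CPM in p53R248W/+ against 16.3, 19.8 and 16.3 CPM in p53+/+ libraries. Its log2 fold change was 0.88 (SE 0.27, adjusted p = 1.0 by edgeR). Hist1h3e, an H3 gene, had 13.8, 8.04 and 13.8 CPM against 5.84, 6.33 and 5.41 CPM. Genotypes did not overlap for either gene, and the log2 fold change of Hist1h3e was 1.02 (SE 0.36, adjusted p = 1.0 by edgeR). The H4 gene Hist2h4 had the tightest values among those without overlap, with 3.20, 3.18 and 3.38 CPM in p53R248W/+ against 1.71, 1.74 and 2.23 CPM in p53+/+ libraries, and was chosen after its values were seen. Replicates 2 and 3 of p53R248W/+ were as high as replicate 1 for this gene.

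In p53R248W/+ against p53-/- LSKs, 8 of 59 histone genes rose, against 2.34% of all genes tested that were called higher, and none fell, against 1.1% called lower. These libraries are the same ones as in the comparisons with p53+/+, so the values are not independent of those above. The genes were H2afy and 7 H2B genes: the 5 H2B genes that were lower in p53-/- against p53+/+ LSKs, together with Hist1h2bb and Hist1h2bc. Log2 fold changes were above 0 in 46 of 49 Hist genes, against 51.7% of all genes tested, with a median of 1.19 against 0.02 over all genes, and libraries did not overlap in 30 of 49 with p53R248W/+ higher, against 12.1% of all genes tested. For H2B the median was 1.51, and 15 of 15 genes were above 0. Hist1h2bg had a log2 fold change of 1.62 (SE 0.24, adjusted p = 0.00828 by edgeR), and it passed in all 17 alternatives tried, including each of the 9 fits without 1 library.

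Hist1h2bb (chr13:23746734-23747223) had 8.70, 3.51 and 5.67 CPM in p53R248W/+, 1.63, 1.49 and 0.540 CPM in p53-/- and 4.03, 3.59 and 4.41 CPM in p53+/+ libraries, a log2 fold change of 2.29 between p53R248W/+ and p53-/- (SE 0.49, adjusted p = 0.0316 by edgeR). The values of p53R248W/+ spread on both sides of those of p53+/+. Hist1h2bc (chr13:23684199-23692480), whose values are given above, had a log2 fold change of 0.96 (SE 0.21, adjusted p = 0.0337 by edgeR). H2afy had 0.87 (SE 0.15, adjusted p = 0.0124 by edgeR) and Hist3h2bb-ps 4.79 (SE 0.81, adjusted p = 0.0129 by edgeR), with 182 counts over the p53R248W/+ and 5 over the p53-/- libraries. With 1 library left out, the number of Hist genes called was 1 without p53-/- replicate 3, 2 without p53-/- replicate 1, and 3 each without p53-/- replicate 2 or p53R248W/+ replicate 2 or 3. These 5 fits called 68 to 125 of all genes higher, against 295 with all libraries. H2afy lost its call without p53-/- replicate 1 or 3 and without p53R248W/+ replicate 2 or 3. In a fit to the 6 libraries of both genotypes 2 Hist genes were called, against 1.2% of all genes called higher. DESeq2 called 17, against 5.87%, of which 9 were of H2B and 8 of other classes. The granulocyte and monocyte, T and NK, B lymphoid and megakaryocyte lists were higher in all p53R248W/+ than in all p53-/- libraries and the LSK list was lower, and the part of these differences in the comparison was not tested.

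Genes that process histone mRNA and deposit histones were listed beside the Hist genes. Of 21 genes with a row in a list of 22 for the processing and transcription of histone mRNA, 1 rose and 1 fell in p53-/- against p53+/+ LSKs, against 1.25% and 2.25% of all genes tested, with a median log2 fold change of -0.13. Casp8ap2, which encodes the FLASH protein of the histone locus body, fell from a mean of 53.1 to 17.4 CPM, by 1.61 on the log2 scale (adjusted p = 0.0340 by edgeR). Cstf2t, which encodes a cleavage stimulation factor subunit, rose from 79.2 to 185.3 CPM, with a log2 fold change of 1.23 (adjusted p = 0.0148 by edgeR). Of 30 genes for histone chaperones and deposition, 4 fell and 0 rose, against 2.25% and 1.25% of all genes tested. A log2 fold change below 0 was found in 26 of the 30, against 50.1% of all genes tested, with a median of -0.33. Those that fell were Atrx (-1.65, adjusted p = 0.0259), part of the remodeler that deposits H3.3 with DAXX, Dek (-1.22, adjusted p = 0.0183), which encodes a chromatin protein, Ncl (-1.20, adjusted p = 0.0393), the nucleolar protein nucleolin, and Supt16 (-1.03, adjusted p = 0.0320), a subunit of the H2A and H2B chaperone FACT.

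S phase genes were listed beside the Hist genes because Hist transcription is tied to DNA replication. Of 36 genes for S phase and replication, 1 fell in p53-/- against p53+/+ LSKs, the ligase gene Lig1 (-1.10, adjusted p = 0.0274 by edgeR), a share near the 2.25% of all genes tested. A log2 fold change below 0 was found in 32 of the 36, against 50.1% of all genes tested, with a median of -0.30. Their summed level was 7835, 9338 and 10235 CPM in p53+/+, 8828, 8892 and 7800 CPM in p53R248W/+ and 8383, 6187 and 6935 CPM in p53-/- libraries. The highest p53-/- library lay above the lowest p53+/+ library. In p53R248W/+ against p53+/+ LSKs 0 of the 36 genes passed and 24 were below 0, against 47.5% of all genes tested, with a median of -0.08, while the Hist genes were above 0. In p53R248W/+ against p53-/- LSKs, Pola1, which encodes the catalytic subunit of DNA polymerase alpha, rose by 1.27 on the log2 scale (adjusted p = 0.0234 by edgeR), as the one S phase gene past the threshold, where 2.34% of all genes tested were called higher. In the same comparison Casp8ap2, Atrx, Dek and Supt16 were higher and Cstf2t was lower.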

How the data were processed

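RNA of LSKs was sequenced by the authors, who deposited whole-number read counts per gene for 9 libraries, without normalization, for 12647 genes. Per the labels' processing notes, tools named for the series include STAR 2.5.2b, featureCounts of Subread 1.5.0 and edgeR, with mm10 as the genome build, without role or order. Gene lengths were deposited by the authors, and the deposited columns with the authors' own test results (fold changes, p-values and FDR) were not used. Strand and the treatment of reads that match several genes are not given in the sources used here, and nothing in the labels ties a library to a mouse, so p-values measure the spread between libraries.

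Here, 12625 genes passed filterByExpr by genotype, and 1 quasi-likelihood model was fitted to all 9 libraries with edgeR 4.0.16 in R 4.3.3, with TMM factors from 0.935 to 1.04 and Benjamini-Hochberg adjustment over all genes tested. CPM uses these factors. Depth was 18021375 to 29750702 counts per library. Histone genes and lists were chosen with earlier results of these data known. Genes given in full were those past the threshold in a comparison, the highest gene per kb of each core class, and each variant. The fit was varied with DESeq2 1.42.0 and limma-voom of limma 3.58.1, other library factors, no filter or a minimum of 10 counts per library, a replicate block, fits to 6 libraries, and each library left out. Interval bounds are exact at 95% and cover counting error only. Counts were simulated for 12625 genes for p53-/- against p53+/+, of which 200 had log2 fold changes of 1 to 1.5. These 200 were drawn from genes above the median level. Of them edgeR recovered 169, with 11 false calls over the 12608 genes past its filter. limma-voom recovered 168 with 7 false calls, and DESeq2 184 with 29 false calls, the most of these tools. Recovery of genes below the median level was not tested. Promoters, stem-loops and positions were read from RefSeq on GRCm38 with Python 3.11.15.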

Additional observations from a re-analysis of the deposited data

How the results depend on the processing

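For p53-/- against p53+/+ LSKs, 5 Hist genes and 1 variant gene were called. DESeq2 called 9 Hist genes, limma-voom 1, and the stricter filter (10 or more counts in all 9) 2, while leaving out 1 library gave 0 to 8 Hist genes and 0 to 1 variant genes. For p53R248W/+ against p53-/- LSKs, 7 Hist genes and 1 variant gene were called, against 17 Hist genes by DESeq2, 2 in the fit to 6 libraries, and 1 to 7 Hist genes and 0 to 1 variant genes with 1 library left out. No Hist or variant gene was called for p53R248W/+ against p53+/+ LSKs under any alternative tried. The stricter filter left 36 of 49 Hist genes, so Hist1h2bp, Hist3h2ba and Hist3h2bb-ps, with 7, 5 and 0 counts in their lowest library, were not tested there. The calls over all genes moved too, from 442 to 1542 by DESeq2, 297 by limma-voom and 37 to 1485 with 1 library left out in the first comparison, and from 434 to 1326 by DESeq2, 208 in the fit to 6 libraries and 77 to 1559 with 1 library left out in the last. The cause of these differences was not tested.

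The log2 ratio of the summed Hist level was -0.12 for p53-/- against p53+/+ and 0.52 for p53R248W/+ against p53-/-, and -0.77 and 1.23 as a mean over the log2 CPM of the genes, which weights scarce genes like abundant ones. Without p53-/- replicate 3 the first of these was 0.14. For the variants it was -0.39 and 0.46, then -0.22 and 0.30 as a mean over genes, and -0.078 and 0.21 without H2afy.

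In p53R248W/+ against p53+/+ LSKs, where none of these genes was called, values near 0 changed sign when 1 library was left out. H2afy ranged from -0.038 to 0.092, with -0.038 and -0.011 without p53+/+ replicate 1 or 2 and -0.035 and -0.027 without p53R248W/+ replicate 2 or 3. Without p53R248W/+ replicate 1, Hist1h2bc had -0.023, Hist1h2bm -0.084 and Hist1h2bp -0.16, and leaving out 1 library at a time their highest values were 0.33, 0.50 and 0.57. No other value of the 8 called genes changed sign in any comparison.

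Deviations of libraries with the same number from their genotype means had correlations across genes of 0.361, 0.543 and 0.0388 between p53+/+ and p53R248W/+. Libraries of these genotypes with different numbers had -0.476 to 0.00934. For pairs with p53-/- the same number gave -0.108 to 0.132, and different numbers gave -0.228 to 0.177. Deviations within a genotype cancel, so these correlations are not independent. Replicates 1 and 2 of p53+/+ and p53R248W/+ thus varied alike by number, for a reason that was not tested. Column names of these genotypes differ in style by number too. The main fit leaves the numbers out, and no paired fit to the 6 libraries of p53+/+ and p53R248W/+ was made. The replicate block takes the numbers as blocks in all 3 genotypes. It again gave 5, 0 and 7 called Hist genes in the 3 comparisons. Depth limits the scarce genes, of which Hist3h2bb-ps had 5 counts over the p53-/- libraries.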
